A study of Zea mays subsp. mays with 11 samples.

Results

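B73_24PHAS_35105, B73_24PHAS_20630 and B73_24PHAS_7001 are 3 loci of the maize genome that make 24-nt phased small interfering RNAs (phasiRNAs), the small RNAs of 24-PHAS loci. They belong to the 75 loci that the study classed as premeiotic 24-PHAS loci, among 659 PHAS loci measured. They were chosen by their CPM, the read count of a locus scaled to a fixed library total, in ago18HM libraries being below that in ago18HT libraries while most premeiotic loci were not, so their genotype differences are given as a description, with no test. By mean log2(CPM + 1), 14 of the other 72 premeiotic loci were also lower in ago18HM at 5 mm, and 65 were at 2 mm. The median of the 72 at 2 mm changed sign without a library described below. The class was set by the study on the level of each locus in other anther libraries, which were not analysed here.

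Small RNA bound to Argonaute proteins was isolated from maize anthers with TraPR columns, which retain free RNA and let Argonaute-bound small RNA pass, and was sequenced. The 4 groups were ago18HM anthers at 5 mm (n = 3), ago18HT anthers at 5 mm (n = 3), ago18HM anthers at 2 mm (n = 2) and ago18HT anthers at 2 mm (n = 3). ago18HM plants were homozygous for mutations in AGO18a, AGO18b and AGO18c, and ago18HT plants, their siblings, were heterozygous at all of them, so the controls also carried 1 mutant copy of each gene. The mutations in AGO18a and AGO18b came from CRISPR-Cas9 editing and that in AGO18c was a Mu transposon insertion, the plants carried no editing transgene, and their background was mostly B73.

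PhasiRNAs are made when a long noncoding transcript is turned into double-stranded RNA and cut at regular steps by a Dicer-like enzyme, and DCL5 is the enzyme that makes the 24-nt class in grass anthers. The products are loaded into Argonaute proteins, and a small RNA that no Argonaute holds is often degraded. The study proposes, though, that meiotic 24-nt phasiRNAs can persist unloaded in maize anthers for a time. AGO18 is a branch of the Argonaute family found in grasses and expressed in their anthers. In maize, 24-nt phasiRNAs are best known from anthers at meiosis.

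The most abundant small RNA of each locus is shown because it identifies the product that was counted and because its first base, given as the capital, is a feature by which plant Argonautes sort small RNAs. The sequences were taken from the study's locus annotation and run 5′ to 3′.
B73_24PHAS_35105: Acaaccacugcuagccacaaccuc
B73_24PHAS_20630: Aagucuaggcuagguuugucacug
B73_24PHAS_7001: Uauacacuguauuagggaugaaga

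B73_24PHAS_7001 was the only premeiotic locus whose most abundant RNA began with U. In the other 74 of 75 (98.7%) it began with A, against 144 of 154 meiotic loci (93.5%). The GC content of the 3 RNAs was 54.2% for B73_24PHAS_35105, 45.8% for B73_24PHAS_20630 and 33.3% for B73_24PHAS_7001, beside a median of 41.7% over premeiotic loci. Reads that fit several positions were included in the counts, and none of the 3 RNAs was the most abundant RNA of another PHAS locus. The closest other such RNA differed at 10 positions for B73_24PHAS_35105 and at 11 for the others. Sharing of the remaining reads with other loci was not tested.

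The loci lie on different chromosomes of B73 RefGen_v5. B73_24PHAS_35105 (chr6:40122405-40125870) is 3466 bases long, has no assigned strand, and lies between genes, 5064 bases from the protein-coding LOC103640546. A strand was unassigned at 2 of 75 premeiotic loci and at 63 of 154 meiotic loci. B73_24PHAS_20630 (chr3:229511058-229512999, minus strand) is 1942 bases long and lies wholly within LOC103651588, annotated as a transcribed pseudogene. It is the 6th shortest premeiotic locus, and 17 of the 75 overlap an annotated gene. B73_24PHAS_7001 (chr1:271754700-271757193, minus strand) is 2494 bases long and lies 278 bases from the protein-coding LOC100283054. The median length was 2981 bases for premeiotic loci and 1275.5 bases for meiotic loci.

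The libraries of 5 mm anthers were shallower, with CPM denominators of 5419067 to 17805878 reads in 6 libraries, against 33076189 to 53038060 reads in the 5 libraries of 2 mm anthers, so depth and anther length cannot be told apart. Reads recovered from the CPM numbered 206 to 48910 per library at the 3 loci, though such reads did not pass a separate check on low values. The mean of the lower and upper arms of the 95% Poisson interval was at most 13.9% of the value. It covers counting error only and treats reads as independent, also those that fit several positions. One library, ago18HT-2mm replicate 1, stood apart. Its premeiotic loci summed to 25306 CPM, against 9651 and 11076 CPM in replicates 2 and 3, and its meiotic loci summed to 117705 CPM, against 237337 and 206990 CPM. Results that use the 2 mm groups are given with and without this library, except the Pearson correlations, which use all 11.

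B73_24PHAS_35105 was far lower in ago18HM than in ago18HT anthers at both lengths. In 5 mm anthers it had 42.2, 64.0 and 50.6 CPM in ago18HM libraries, against 1048, 826 and 854 CPM in ago18HT libraries. In 2 mm anthers it had 80.4 and 120 CPM in ago18HM libraries, against 567, 1479 and 1246 CPM in ago18HT libraries. The genotypes did not overlap at either length, and the lowest ago18HT library was ago18HT-2mm replicate 1.

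The group means of B73_24PHAS_35105 were 52.3 ± 10.995 CPM in ago18HM-5mm (SD, n = 3) and 910 ± 121 CPM in ago18HT-5mm (n = 3), a ratio of 0.0575. They were 100.4 ± 28.3 CPM in ago18HM-2mm (n = 2) and 1097 ± 474 CPM in ago18HT-2mm (n = 3), a ratio of 0.0915, or 0.0737 without ago18HT-2mm replicate 1. On the log2(CPM + 1) scale the differences were -4.11 (SE 0.34) at 5 mm and -3.35 (SE 0.38) at 2 mm, or -3.77 without ago18HT-2mm replicate 1. In bulk anthers, fewer cells making a small RNA and less of it per cell cannot be told apart. These libraries hold Argonaute-bound RNA only, so less small RNA made and less of it loaded cannot be told apart either.

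B73_24PHAS_20630 was lower in ago18HM at 2 mm only, so the rule by which it was chosen holds at that length and not at 5 mm. In 2 mm anthers it had 27.8 and 24.8 CPM in ago18HM libraries, against 80.9, 55.6 and 65.4 CPM in ago18HT libraries. In 5 mm anthers it had 93.2, 59.2 and 64.0 CPM in ago18HM libraries, against 50.1, 69.8 and 68.5 CPM in ago18HT libraries. The ago18HM-2mm libraries were the lowest of the 11, and the genotypes overlapped at 5 mm.

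The group means of B73_24PHAS_20630 were 26.3 ± 2.09 CPM in ago18HM-2mm and 67.3 ± 12.7 CPM in ago18HT-2mm, a ratio of 0.391, or 0.435 without ago18HT-2mm replicate 1. At 5 mm they were 72.1 ± 18.4 CPM in ago18HM and 62.8 ± 11.1 CPM in ago18HT, a ratio of 1.15. The log2 differences were -1.31 (SE 0.26) at 2 mm, or -1.17 without that library, and 0.18 (SE 0.23) at 5 mm. The value at 5 mm was smaller than its error, and its sign changed to -0.20 when meiotic reads were taken out of the CPM denominator (a scaling that moved the median of all loci at 5 mm to -0.37), to -0.04 when CPM were divided by the 21-PHAS sum and to -0.01 without ago18HM-5mm replicate 1.

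B73_24PHAS_7001 differed less between the genotypes, and in the same direction at both lengths. In 5 mm anthers it had 48.1, 40.8 and 30.9 CPM in ago18HM libraries, against 71.8, 68.5 and 63.6 CPM in ago18HT libraries. In 2 mm anthers it had 44.8 and 46.3 CPM in ago18HM libraries, against 133, 69.7 and 71.6 CPM in ago18HT libraries. The genotypes did not overlap, and ago18HT-2mm replicate 1 was here the highest library.

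The group means of B73_24PHAS_7001 were 39.9 ± 8.67 CPM in ago18HM-5mm and 67.9 ± 4.13 CPM in ago18HT-5mm, a ratio of 0.588. They were 45.5 ± 1.08 CPM in ago18HM-2mm and 91.3 ± 35.8 CPM in ago18HT-2mm, a ratio of 0.499, or 0.644 without ago18HT-2mm replicate 1. The log2 differences were -0.77 (SE 0.26) at 5 mm and -0.92 (SE 0.29) at 2 mm, and the value at 2 mm was -0.62 without that library.

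**Figure D1:**
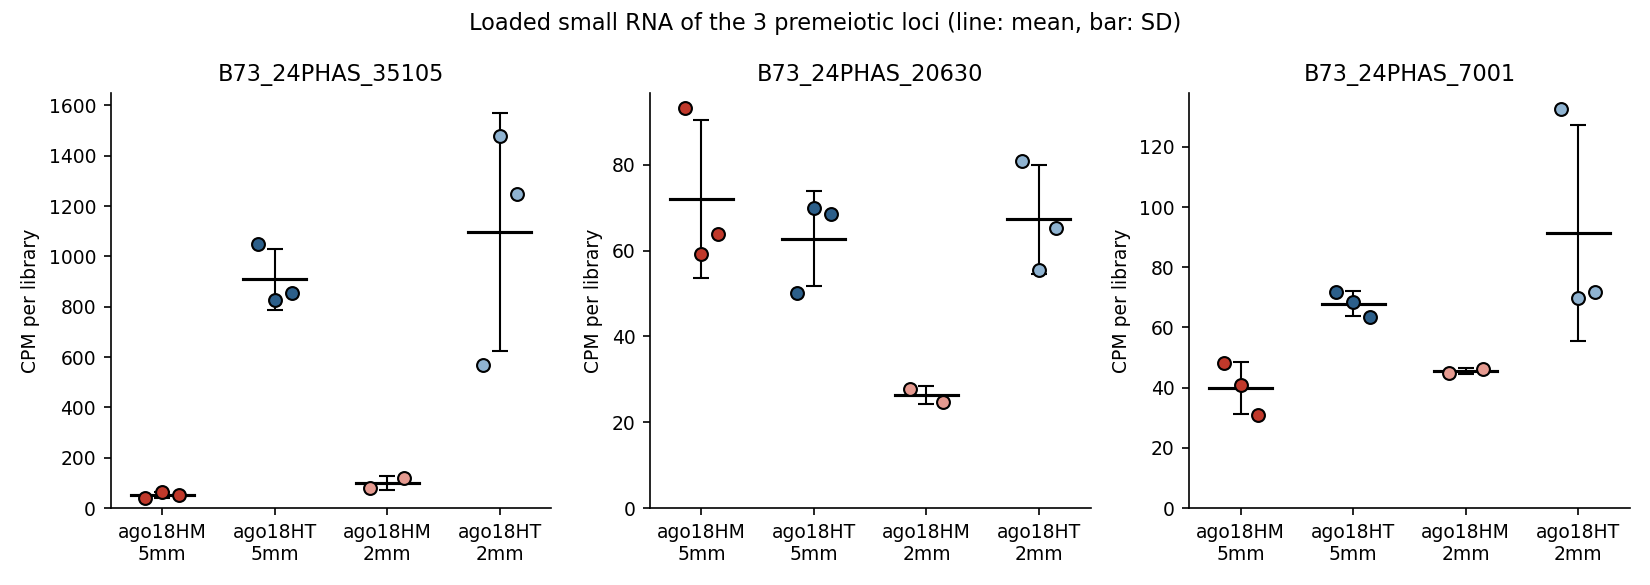
CPM of each of the 3 loci in every library (points, linear axes that start at 0 and differ between panels), by group, with the mean as a line and the SD as a bar. B73_24PHAS_35105 separates the genotypes at both lengths, B73_24PHAS_20630 is low only in the 2 ago18HM-2mm libraries, and B73_24PHAS_7001 separates them by a smaller margin.

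The calls of a limma fit over all 659 loci (adjusted p under 0.05 and a fold change above 1.5) are given only to place the loci among the rest, since the rule used the same contrasts. At 5 mm, where 21.1% of all loci were called lower in ago18HM, B73_24PHAS_35105 was the only one of the 3 called. At 2 mm, where 17.0% were called lower, B73_24PHAS_35105 and B73_24PHAS_20630 were called. For the difference averaged over both lengths, with 21.1% called lower, B73_24PHAS_35105 and B73_24PHAS_7001 were called. No other premeiotic locus was called lower in these 3 comparisons. Without ago18HT-2mm replicate 1, when 19.1% of loci were called lower at 2 mm and 21.5% on average, the same loci of the 75 were called in both, and at 5 mm, where its SE was then 0.18, B73_24PHAS_7001 was called as well.

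All ago18HM libraries lay below all ago18HT libraries at 5 mm for 24.7% of all loci and for 2 of 75 premeiotic loci, B73_24PHAS_35105 and B73_24PHAS_7001. They did so at 2 mm for 25.5% of all loci and for 13 premeiotic loci, the 3 described here among them. At both lengths 20.0% of all loci were separated in this way, and of the premeiotic loci again B73_24PHAS_35105 and B73_24PHAS_7001. Among meiotic loci the count at both lengths was 122 of 154. Without ago18HT-2mm replicate 1 the separation at 2 mm held for 30.5% of all loci and 14 premeiotic loci, and at both lengths for 22.2% of all loci, 134 meiotic loci and the same 2 premeiotic loci.

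The other 72 premeiotic loci had a median log2 difference of 0.26 at 5 mm and of -0.46 at 2 mm, and the median at 2 mm changed sign, to 0.08, without ago18HT-2mm replicate 1. The median of the meiotic loci was -4.03 at 5 mm and -1.99 at 2 mm, or -2.38 at 2 mm without that library. B73_24PHAS_35105 was the lowest of the 75 premeiotic loci at both lengths, and its difference at 5 mm was close to the meiotic median. At that length 74 of 154 meiotic loci were at or below it, and at 2 mm 19 were, or 17 without that library. Counted from the lowest of the 75, B73_24PHAS_7001 was 4th at 5 mm and 9th at 2 mm, and B73_24PHAS_20630 was 32nd at 5 mm and 6th at 2 mm. Without that library B73_24PHAS_35105 stayed the lowest at 2 mm, B73_24PHAS_20630 was 7th and B73_24PHAS_7001 was 8th.

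**Figure D2:**
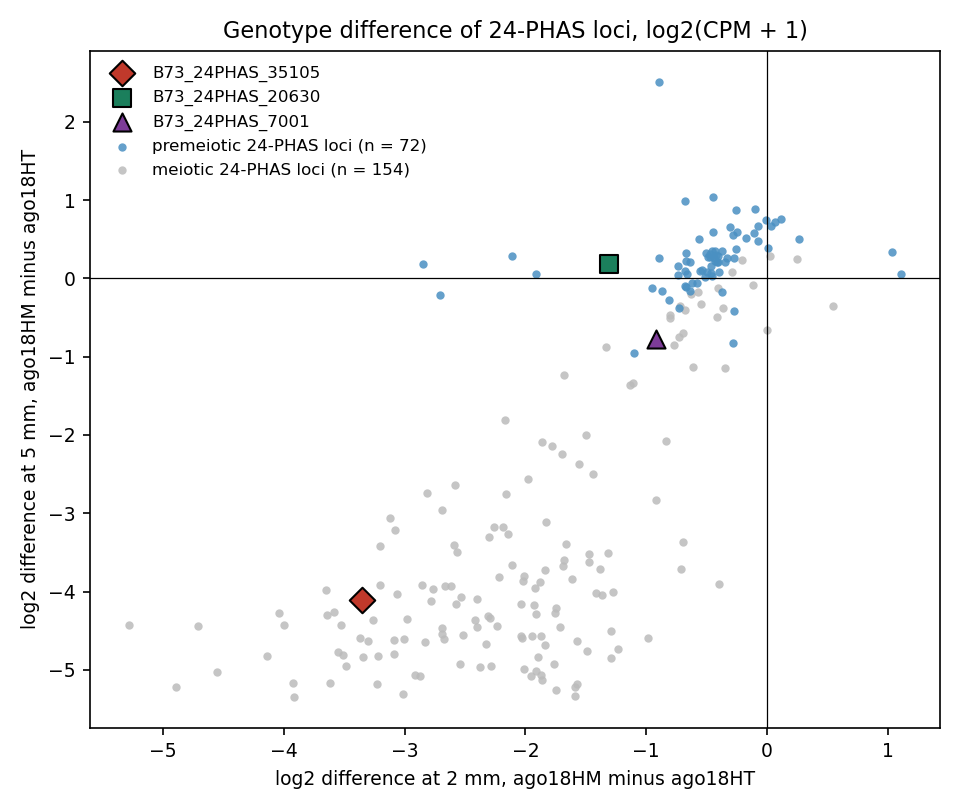
Log2 difference of ago18HM minus ago18HT on the log2(CPM + 1) scale at 2 mm (x axis) and 5 mm (y axis) for each 24-PHAS locus, coloured by class, with the 3 loci marked. B73_24PHAS_35105 lies among the meiotic loci at -3.35 on the x axis and -4.11 on the y axis, away from the other premeiotic loci, and B73_24PHAS_20630 and B73_24PHAS_7001 lie at the edge of the premeiotic loci.

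Of the other 72 premeiotic loci, 5 had averaged differences below those of B73_24PHAS_7001 and B73_24PHAS_20630. Counted from the lowest of the 75, these were 7th and 8th, or 6th and 8th without ago18HT-2mm replicate 1. The lowest 2 of the other loci are given here. B73_24PHAS_22200 averaged -1.46 and B73_24PHAS_8592 averaged -1.33 on the log2 scale, against -3.73 for B73_24PHAS_35105, -0.85 for B73_24PHAS_7001 and -0.56 for B73_24PHAS_20630. Neither was called, and both varied widely within groups. B73_24PHAS_22200 had 2.70, 0.738 and 58.0 CPM in ago18HM-5mm, 1.89, 1.65 and 76.4 CPM in ago18HT-5mm, 0.226 and 0.108 CPM in ago18HM-2mm, and 257, 0.302 and 0.309 CPM in ago18HT-2mm. B73_24PHAS_8592 had 192, 199 and 14.5 CPM in ago18HM-5mm, 163, 14.8 and 157 CPM in ago18HT-5mm, 16.9 and 17.3 CPM in ago18HM-2mm, and 545, 15.9 and 238 CPM in ago18HT-2mm. The genotypes overlapped at both loci at 5 mm. Without ago18HT-2mm replicate 1 the averaged difference was -0.19 for B73_24PHAS_22200 and -0.81 for B73_24PHAS_8592, against -3.94 for B73_24PHAS_35105, -0.70 for B73_24PHAS_7001 and -0.49 for B73_24PHAS_20630, so the larger size of B73_24PHAS_22200 rested on that library.

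Levels of different loci were compared per kilobase of locus. B73_24PHAS_35105 had 15.1 CPM per kb in ago18HM-5mm and 262 CPM per kb in ago18HT-5mm, and 29.0 CPM per kb in ago18HM-2mm and 317 CPM per kb in ago18HT-2mm. In ago18HT anthers it ranked 1st of the 75 premeiotic loci at both lengths, and in ago18HM anthers it ranked 53rd at 5 mm and 37th at 2 mm. The highest of the other 72 reached 126 CPM per kb in ago18HT-5mm and 247 CPM per kb in ago18HT-2mm. Without replicate 1, ago18HT-2mm gave 393 CPM per kb at B73_24PHAS_35105, again the 1st of the 75, and at most 159.5 CPM per kb at the others.

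The median of the meiotic loci was 32.5 CPM per kb in ago18HM-5mm and 669 CPM per kb in ago18HT-5mm, so B73_24PHAS_35105 stood below it in each, by level per length. B73_24PHAS_20630 had 37.1 CPM per kb in ago18HM-5mm, 32.3 in ago18HT-5mm, 13.5 in ago18HM-2mm and 34.6 in ago18HT-2mm. B73_24PHAS_7001 had 16.01 CPM per kb in ago18HM-5mm, 27.2 in ago18HT-5mm, 18.3 in ago18HM-2mm and 36.6 in ago18HT-2mm. Both were mid-ranking premeiotic loci, at places 30 to 52 of 75 in every group. Without replicate 1 the ago18HT-2mm levels were 31.1 CPM per kb at B73_24PHAS_20630 and 28.3 CPM per kb at B73_24PHAS_7001.

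B73_24PHAS_35105 supplied from 0.401 to 0.801% of the summed premeiotic CPM in ago18HM-5mm libraries, against 9.42 to 12.3% in ago18HT-5mm libraries. At 2 mm the share was 0.982 to 1.28% in ago18HM libraries, against 2.24 to 15.3% in ago18HT libraries, the lowest of which was replicate 1, and 11.3 to 15.3% without it. The premeiotic sum averaged 8477 CPM in ago18HM-5mm and 8382 CPM in ago18HT-5mm with this locus, and 8425 and 7473 CPM in the same groups without it. At 2 mm it averaged 8776 CPM in ago18HM and 15344 CPM in ago18HT with the locus, and 8675 CPM in ago18HM and 14247 CPM in ago18HT without it. This gap at 2 mm rested on ago18HT-2mm replicate 1, since without that library the ago18HT mean was 10363 CPM with the locus and 9001 CPM without it.

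The difference between 5 mm and 2 mm anthers uses the libraries by which the loci were chosen, so it is also given as a description, with no test. Averaged over both genotypes it was 0.65 (SE 0.17) for B73_24PHAS_20630, -0.54 (SE 0.26) for B73_24PHAS_35105 and -0.28 (SE 0.20) for B73_24PHAS_7001 on the log2 scale. Within ago18HM anthers B73_24PHAS_20630 differed by 1.40 and within ago18HT anthers by -0.10 (0.04 without ago18HT-2mm replicate 1), so its averaged value rests on the low ago18HM-2mm libraries that selected it. Without ago18HT-2mm replicate 1 the averaged values were 0.72 for B73_24PHAS_20630, -0.75 for B73_24PHAS_35105 and -0.13 for B73_24PHAS_7001. Of all loci 5.46% were called higher at 5 mm and 13.2% lower, and of the other 72 premeiotic loci 0 were called in either direction, with a median of -0.41. Without that library the median was -0.17. In that fit 18.1% of all loci were called lower, and 1 of the 72, B73_24PHAS_37655, was among them.

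The ago18HT-2mm libraries were also compared with one another, without the ago18HM libraries. They are among the libraries by which the loci were chosen, so the comparison is not independent of that choice. Their plants also carried a mutant copy of each AGO18 gene. In replicate 1 the CPM of B73_24PHAS_35105 was 0.416 times the mean of replicates 2 and 3, that of B73_24PHAS_20630 was 1.34 times and that of B73_24PHAS_7001 was 1.88 times. The other 72 premeiotic loci had a median ratio of 3.13, with quartiles of 2.49 and 4.86, and the 154 meiotic loci a median of 0.539. Only 3 of the 72 had a ratio at or below that of B73_24PHAS_35105, 5 had one below that of B73_24PHAS_20630, and 66 had one above that of B73_24PHAS_7001. The ratio was below 1 at 130 of 154 meiotic loci, and the median 21-PHAS locus had 0.998. It compares 1 library with 2 others, so no test was made.

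**Figure D3:**
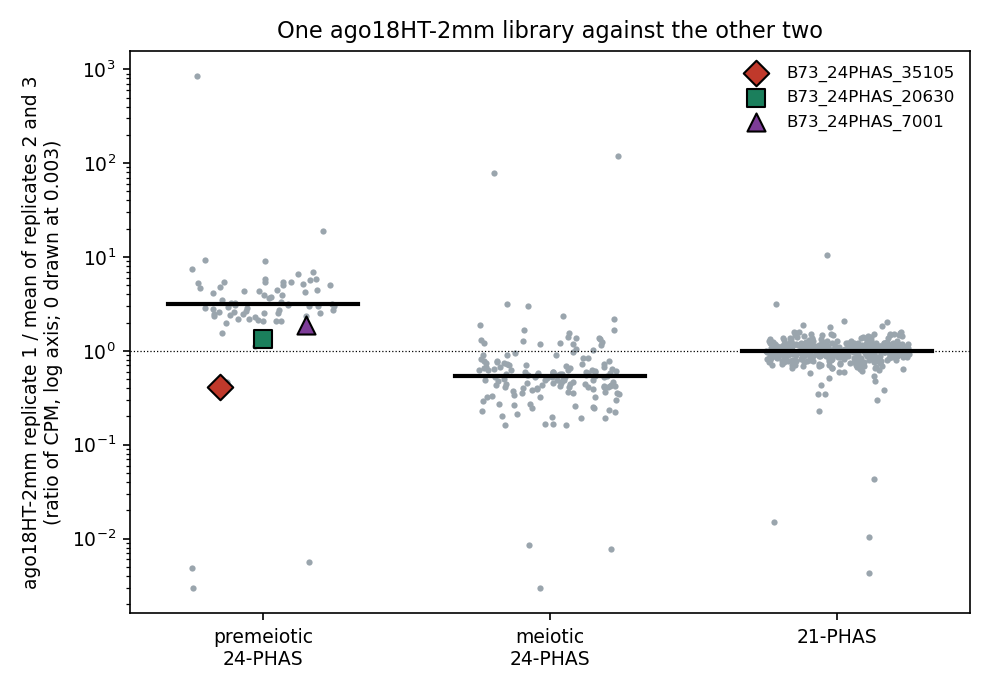
Ratio of the CPM in ago18HT-2mm replicate 1 to the mean of replicates 2 and 3 (log axis, ratios of 0 drawn at 0.003) for each PHAS locus by class, with the 3 loci marked and bars at the median of the other loci of each class. B73_24PHAS_35105 lies at 0.416, within the meiotic range, and B73_24PHAS_20630 and B73_24PHAS_7001 lie between 1 and the premeiotic median of 3.13.

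The loci whose pattern was most like that of each were found by Pearson's r of log2(CPM + 1) over the 11 libraries, which the loci share and whose genotype difference the r contains. For B73_24PHAS_35105 they were the meiotic loci B73_24PHAS_4292 (r = 0.994), B73_24PHAS_4290 (r = 0.994) and B73_24PHAS_4201 (r = 0.9925), and the 10 highest were all meiotic. The most similar premeiotic locus was B73_24PHAS_7001, at place 138 with r = 0.755. For B73_24PHAS_7001 they were the meiotic B73_24PHAS_1386 (r = 0.924) and the premeiotic B73_24PHAS_51550 (r = 0.921) and B73_24PHAS_26095 (r = 0.911), and of its 10 highest 7 were meiotic and 3 premeiotic. For B73_24PHAS_20630 the values were lower, with the 21-nt loci B73_21PHAS_10413 (r = 0.738), B73_21PHAS_14657 (r = 0.734) and B73_21PHAS_3888 (r = 0.731) first. Of its 10 highest 7 were 21-nt loci, 1 was meiotic and 2 were premeiotic. Among all 659 loci 430 were 21-nt loci, 154 meiotic and 75 premeiotic, so 7 of 10 was near the share of 21-nt loci. The median r of B73_24PHAS_20630 was -0.13 with 21-nt loci, 0.14 with meiotic loci and 0.22 with premeiotic loci.

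B73_24PHAS_35105 lies in a stretch of chromosome 6 with 5 meiotic 24-PHAS loci within 1 Mb and no premeiotic one. The nearest, B73_24PHAS_35107, is 115016 bases away and averaged 173 CPM in ago18HM-5mm and 3064 CPM in ago18HT-5mm. The ratio of ago18HM to ago18HT at 5 mm was 0.0455 to 0.0671 over the 5 neighbours and 0.0575 at B73_24PHAS_35105. At 2 mm it was 0.122 to 0.709 over the neighbours and 0.0915 at B73_24PHAS_35105, and without ago18HT-2mm replicate 1 it was 0.0976 to 0.571 over the neighbours and 0.0737 at B73_24PHAS_35105, lower than at each of them both ways.

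**Figure D4:**
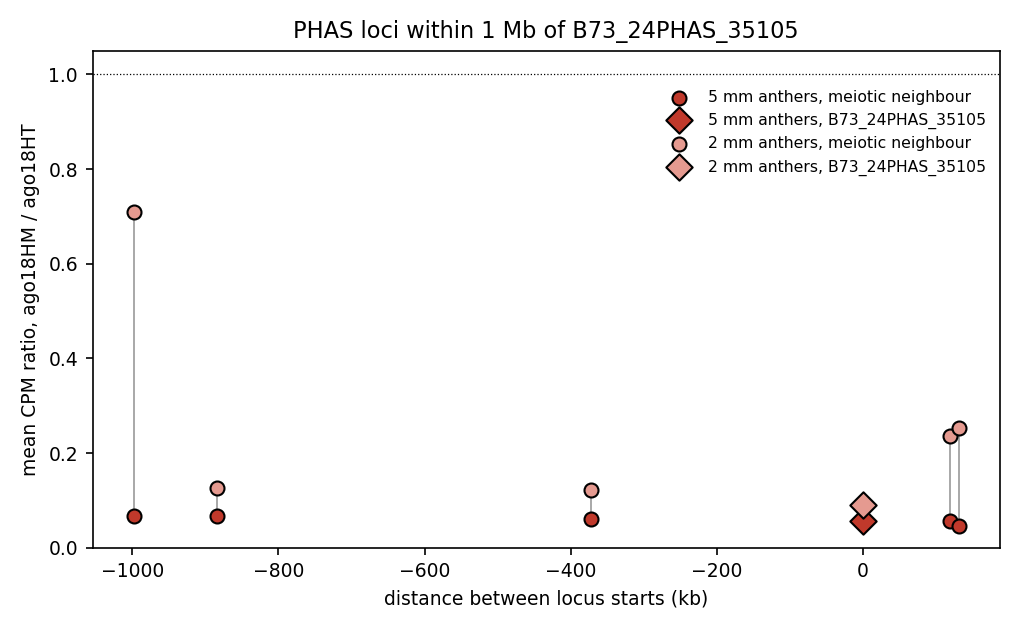
Ratio of the mean CPM in ago18HM to that in ago18HT (linear axis) at B73_24PHAS_35105 (diamonds) and its 5 meiotic neighbours (circles), by distance in kilobases between locus starts. At 5 mm all 6 loci lie between 0.0455 and 0.0671, and at 2 mm the neighbours reach 0.709.

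A meiotic locus within 1 Mb was not particular to it. It was found at 10 of 75 premeiotic loci, B73_24PHAS_7001 among them, and the other 8 had log2 genotype differences of 0.04 to 2.51 at 5 mm and of -1.91 to -0.41 at 2 mm, or -1.51 to 0.47 at 2 mm without ago18HT-2mm replicate 1. The neighbour of B73_24PHAS_7001, B73_24PHAS_7023, is 902042 bases away and averaged 0.25 CPM in ago18HM-5mm and 2.51 CPM in ago18HT-5mm. In ago18HM-5mm replicates 1, 2 and 3, a count of 3 reads equals 0.17, 0.55 and 0.45 CPM, so the lower value rests on a few reads. B73_24PHAS_20630 had no PHAS locus within 1 Mb, and its nearest, the premeiotic B73_24PHAS_20141, is 12031706 bases away, with 44.4 CPM in ago18HM-5mm, 31.6 CPM in ago18HT-5mm, 57.1 CPM in ago18HM-2mm and 69.3 CPM in ago18HT-2mm, or 37.8 CPM there without replicate 1.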

How the data were processed

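Per the labels and the study's methods, small RNA was isolated from 2 mm and 5 mm maize anthers with TraPR columns, with 2 or 3 replicates a group from distinct plants. The authors mapped reads to B73 RefGen_v5 with Bowtie 1.3.1, counted them per PHAS locus with featureCounts 1.6.3, reads that fit several positions included, and deposited CPM values made with edgeR 4.0.2. The methods do not say at how many of its positions such a read was counted. CPM are counts scaled to a fixed library total, so a large change in one class moves all others.

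All 11 columns were matched to samples by name. Values were analysed as log2(CPM + 1) with limma 3.58.1 in R 4.3.3, with 4 group means over the 11 libraries, an intensity trend in the variance and Benjamini-Hochberg adjustment over all loci. Loci needed at least 1 CPM in at least 2 libraries, which kept all 659. A locus was called at an adjusted p under 0.05 and a fold change above 1.5. The anther length effect was planned as a test, but it shares libraries with the selection, so no p is given for the 3 loci. Its fit recovered 90.5% of 105 simulated 2-fold changes and 100% of 95 simulated 4-fold changes, with 3.06% of calls false, over 659 loci. The simulated counts had the same dispersion at every locus and no outlying library, so these rates may not hold for the data. The genotype contrasts were not simulated. Fold changes on this scale understate those of low loci.

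CPM denominators were estimated from the smallest steps between values, at which 100% of values were whole to within 0.001 reads. Class, position and most abundant RNA came from the study's locus annotation, and genes from RefSeq for the same B73 assembly. Named loci were the 3 described, the 3 most like each by Pearson's r, the PHAS locus nearest to each, and the 2 other premeiotic loci with the lowest averaged genotype difference. The members and lists were chosen with earlier results of these data known. Alternatives were other pseudocounts, filters and scalings, a fit without the variance trend, a fit of each pair of groups alone, the replicate number as a block, and leaving out each library.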

Additional observations from a re-analysis of the deposited data

How the results depend on the processing

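Of 495 values recomputed under other settings, 483 were labelled as kept. For a locus this meant the same direction and side of the threshold, or a move of less than the spread between replicates. For a count of called loci it meant a change of at most 1.5-fold. Many values could not change, so 483 overstates the stability. The filter kept all loci, the variance trend does not alter a log2 difference, and leaving out a library of one length does not move the genotype difference at the other. No value with a fold change above 1.5 changed sign. Smaller ones did, 3 times for the difference of B73_24PHAS_20630 at 5 mm, 3 times for its length effect within ago18HT, and 1 time each for that of B73_24PHAS_35105 and for the change with length of B73_24PHAS_7001. With meiotic reads out of the CPM denominator, the genotype difference at 5 mm was -0.20 for B73_24PHAS_20630 and -1.15 for B73_24PHAS_7001, and the averaged one was -0.88 for B73_24PHAS_20630. Centring on the 21-PHAS loci gave 56 loci lower and 57 higher at 5 mm in the averaged length effect, against 87 and 36 as deposited. Leaving out each library in turn gave 75 to 119 lower and 28 to 42 higher, a length effect of 0.55 to 0.73 for B73_24PHAS_20630, of -0.75 to -0.40 for B73_24PHAS_35105 and of -0.36 to -0.13 for B73_24PHAS_7001. Over 22 settings the genotype difference of B73_24PHAS_35105 was -4.49 to -3.97 at 5 mm and -3.77 to -3.06 at 2 mm. With the replicate block, the length effect of B73_24PHAS_20630 was 0.65 and 88 loci were lower and 33 higher. The replicate numbers gave no sign of pairing the libraries. By deviations from the group mean, 5 of 15 same-numbered pairs had a correlation over 0.1 (median -0.18), against 15 of 30 differently numbered pairs (median 0.10). Deviations within such small groups depend on one another, so this does not settle whether the libraries were paired. A scaling by the summed 21-PHAS CPM was chosen after seeing the data. The planned edgeR test was not run, because reads recovered from the CPM did not pass a separate check on low values. With 2 ago18HM-2mm libraries, the spread of that group rests on the pooled estimate. Depth and anther length cannot be told apart.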
